A study of Drosophila melanogaster with 3 samples.

Results

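In whole Drosophila melanogaster embryos, 955 of the deposited reproducible peaks of the tagged protein CG6254 (21.6%) lay just upstream of a gene start. A peak was taken where the nearest transcription start site (TSS) of a protein-coding gene lay within 500 bp of the summit and the summit was upstream of it in the direction of the gene. Divergent promoters were left out. These are places where protein-coding genes on opposite strands start within 500 bp of the summit and run away from each other. Gene pairs that start farther apart were kept. The nearest protein-coding gene beyond the outermost TSS of the gene ran the opposite way for 420 peaks (44.0%), at any distance. A noncoding gene started within 500 bp of the summit for 67 peaks (7.02%). The list is the one the authors derived with the irreproducible discovery rate (IDR) procedure, a filter on the agreement of peak ranks between replicates. The choice used position alone and no measured value, although GC and the match between replicates varied with the distance from the TSS, as given below. The other peaks were 286 downstream of a TSS within 500 bp, 486 at divergent promoters and 2699 farther than 500 bp from any protein-coding TSS.

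Chromatin immunoprecipitation and sequencing was applied to embryos of a transgenic fly line that stably expresses CG6254 fused at its C-terminal end to green fluorescent protein (GFP), with an antibody against GFP. The embryos were of both sexes, aged 0 to 14 h, and their chromatin was sheared by sonication with a stated size range of 200 to 800 bp. There was 1 group of 3 biological replicates, and no untagged or untreated embryos were analysed here as samples of their own. Whole embryos mix many cell types, so a weak peak in most cells and a strong peak in few cells cannot be told apart, and a tagged transgene need not bind as the untagged protein does.

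The promoter is the stretch of DNA around a TSS where RNA polymerase II and its general factors assemble, and proteins that bind just upstream of it can raise or lower transcription of the gene. Zinc finger proteins such as CG6254 contact DNA through finger modules that each read a few bases, so several fingers in a row can recognise a longer sequence. The compact fly genome holds many gene pairs that start back to back, and a peak between such a pair cannot be given to one of the genes.

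The strongest of these promoter peaks shared a short sequence. Among the 10 strongest, Polr2E had no CAGGGT on either strand within 50 bp of the summit, and Sin3A had it but is not printed. The lines that follow give the 101 bp around the summit at 8 of these 10, which hold CAGGGT and carry the main sequence finding. They are written 5′ to 3′ in gene direction, on the dm6 build from the RefSeq copy of the assembly, with CAGGGT or its reverse complement ACCCTG in capitals.
CG15561, chr3R:31215960-31216060, minus strand: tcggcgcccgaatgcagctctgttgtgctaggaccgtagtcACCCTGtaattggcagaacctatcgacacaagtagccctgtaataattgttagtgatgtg
CG7943, chr3R:30046631-30046731, plus strand: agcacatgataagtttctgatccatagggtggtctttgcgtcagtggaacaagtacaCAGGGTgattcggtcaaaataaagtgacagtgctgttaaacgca
Lrrk, chr3R:20635780-20635880, plus strand: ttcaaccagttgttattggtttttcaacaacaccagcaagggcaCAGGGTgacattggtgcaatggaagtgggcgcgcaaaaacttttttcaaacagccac
Srrm1, chr3L:13036729-13036829, plus strand: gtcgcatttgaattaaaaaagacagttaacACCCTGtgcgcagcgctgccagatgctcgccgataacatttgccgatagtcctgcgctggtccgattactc
sff, chr3L:15925006-15925106, minus strand: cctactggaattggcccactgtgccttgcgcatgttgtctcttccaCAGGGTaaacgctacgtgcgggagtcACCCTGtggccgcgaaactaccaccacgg
GABPI, chr2L:3030450-3030550, plus strand: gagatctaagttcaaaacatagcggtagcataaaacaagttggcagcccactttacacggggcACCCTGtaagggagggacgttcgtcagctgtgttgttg
Pi3K92E, chr3R:20634697-20634797, minus strand: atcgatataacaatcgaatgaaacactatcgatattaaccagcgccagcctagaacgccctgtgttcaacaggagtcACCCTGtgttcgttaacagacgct
CG32365, chr3L:7868942-7869042, plus strand: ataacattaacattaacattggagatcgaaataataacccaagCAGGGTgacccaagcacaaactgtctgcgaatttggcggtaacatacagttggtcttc

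The next lines give 3 of the 20 strongest peaks that have no copy of this sequence in the same window. They are shown for contrast, with no capitals, and Ugalt and CG14100 had 33.7% and 31.7% G or C, while pnt had 44.6%.
pnt, chr3R:23295556-23295656, minus strand: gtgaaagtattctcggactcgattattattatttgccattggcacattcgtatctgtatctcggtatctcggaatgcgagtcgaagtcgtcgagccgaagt
Ugalt, chrX:2703829-2703929, minus strand: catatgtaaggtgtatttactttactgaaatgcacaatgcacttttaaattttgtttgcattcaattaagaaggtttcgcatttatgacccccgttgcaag
CG14100, chr3L:19590572-19590672, minus strand: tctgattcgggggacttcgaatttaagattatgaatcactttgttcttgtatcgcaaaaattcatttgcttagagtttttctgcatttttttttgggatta

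Peaks were looked up in each replicate by a summit within 200 bp among its strongest peaks, as many of them as the IDR list holds. The lists were called on the same replicates that gave the pooled list, so a match is partly built in, and read depth is unknown. Replicate 3 stood apart at promoters. Classified alone, replicates 1, 2 and 3 had 1022, 1001 and 866 peaks upstream of a TSS (21.8% ± 1.91 of the peaks, SD, n = 3) and 388, 384 and 206 downstream of one (7.37% ± 2.35). The median distance upstream was 163.5, 184 and 224.5 bp in these replicates, and the mean GC share at the upstream summits was 38.9%, 36.9% and 32.8%. Replicate 3 thus had the fewest promoter peaks on either side, and the farthest from the TSS and the lowest in GC. The upstream side was the commoner one in each replicate, by 2.63, 2.61 and 4.20 times.

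The highest signals were at genes of varied function. The 20 strongest promoter peaks upstream of a TSS held ranks 2 to 68 in the IDR list, and none had a rank beyond 73 in any replicate. The first lay 68 bp upstream of CG15561 (FBgn0039829; 3R, 31215650 to 31216314), with a deposited signal of 12957.6 in the pooled list. Its signal was 4055.52 in replicate 1, 4983.47 in replicate 2 and 3974.36 in replicate 3, and it ranked 2 in every one. CG7943 (FBgn0039741; 3R, 30045958 to 30047118) came next with a pooled signal of 8546.63 and ranks of 6, 5 and 4 in replicates 1, 2 and 3, and its summit lay in the 5′ UTR of a longer transcript, 211 bp upstream of an internal TSS. Signals come from the authors' peak caller, and with no stated scale they are compared only inside one list.

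Other peaks of the 20 lay at genes for kinases and for regulators of transcription, named here as background. Lrrk (FBgn0038816), which encodes the leucine-rich repeat kinase, had a summit 269 bp upstream of an internal TSS, within a coding exon, with a signal of 6394.18. Pi3K92E (FBgn0015279), the catalytic subunit of class I phosphatidylinositol 3-kinase, had one 15 bp upstream of its TSS with a signal of 5124.81. Both summits lay in the same deposited interval (3R, 20634323 to 20636135), so these peaks are not independent. The kinase gene sff (FBgn0036544) and the splicing factor gene Srrm1 (FBgn0036340) had signals of 6283.08 and 6314.99, with summits 195 and 42 bp upstream. The RNA polymerase II subunit gene Polr2E (signal 4903.63), the co-repressor gene Sin3A (4879.2), the ETS transcription factor gene pnt (3286.06) and the LIM homeodomain gene Lim3 (3105.14) were also among the 20. The others were GABPI, CG32365, CG5708, CG44002, Exn, px, the UDP-galactose transporter gene Ugalt, ec, CG7879 and CG14100. Of the 20 summits, 10 lay within 100 bp of the TSS, against 20% of all 955, and 6 were at internal TSSs.

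**Figure D1:**
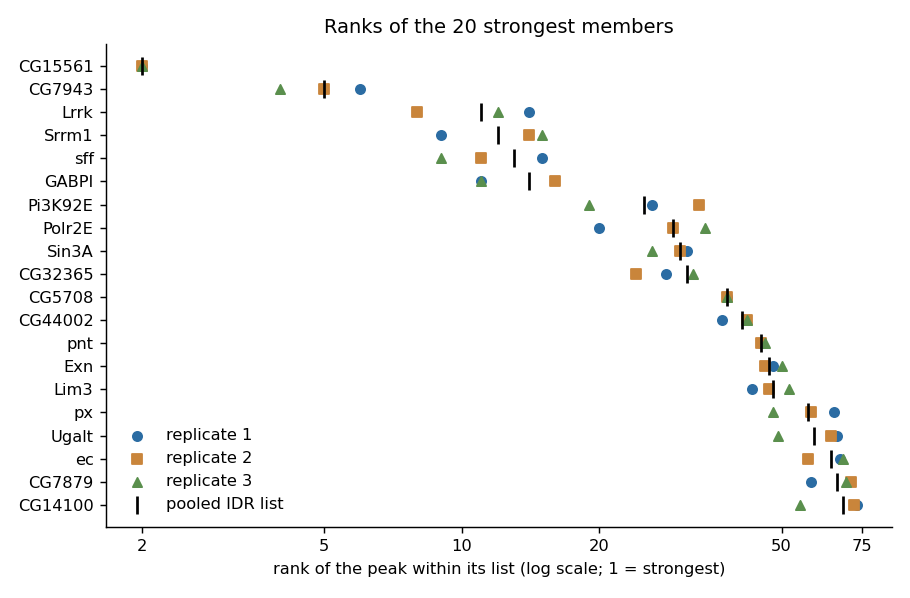
Rank of each of the 20 strongest promoter peaks upstream of a TSS (rows, strongest at the top) in the 3 replicates and in the pooled IDR list, on a log axis where 1 is the strongest peak of a list. The first peak ranked 2 in every list, and no rank in a replicate was beyond 73.

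The sequence CAGGGT, shown in capitals in the lines above, was found at the summits of 51 of the 955 promoter peaks (5.34%) and in 7 of the flanks (0.733%). The flank was a window of the same 101 bp centred 350 bp farther upstream, and both strands were searched. Of 2080 6-mers, each counted with its reverse complement, 43 were commoner at summits than in flanks (2.07%), and only TTAAAA had a smaller p than CAGGGT (exact McNemar test, two-sided, adjusted p = 2.5e-06). Windows of the same length centred 150 bp upstream of the outermost TSS of all 13945 protein-coding genes held it at 1.42%. Peaks elsewhere held it as well, with 6.99% of downstream promoter peaks, 6.58% of divergent ones and 4.74% of those beyond 500 bp.

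Around CAGGGT the flanking bases were uneven. An A preceded 38 of 53 copies and a G followed 38 of 53 (71.7% each). The longer word ACAGGGTG, which contains CAGGGT, was at 31 summits and 1 flank (exact McNemar test, adjusted p = 0.000506), and it was the only 8-mer called of 32896. All gene promoters held it at 0.0861%. It was at 3.25% of upstream peaks and 3.21% of all IDR peaks, with 4.55% downstream of a TSS, 3.29% at divergent promoters and 3.04% beyond 500 bp. The centre of the nearest CAGGGT copy lay a median of 18.5 bp from the summit, and 29 of 51 were within 20 bp. It ran with the gene at 21 and against it at 30 of the 51 peaks (exact binomial test, two-sided, p = 0.262).

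The sequence was concentrated in the strongest peaks. Of the 20 strongest, 15 held CAGGGT (75%, exact 95% interval 50.9 to 91.3), and of the next 30 it was 6 (20%, interval 7.71 to 38.6). Below that, no set of peaks in order of signal exceeded 5.81%. The same peaks put in the order of signal of each replicate gave 21 of the strongest 50, and between 0 and 3 of the next 50. They are peaks of the pooled list, so this likeness is partly built in. Upstream peaks classified from each replicate alone gave 22, 19 and 22 of the strongest 50 in replicates 1, 2 and 3. Exact intervals cover counting error only. The share of G and C was 46.4% in the strongest 20 peaks, 32.2% in the next 30 and 37.9% in the weakest 155, and the part of base composition in the result was not tested. Peaks with CAGGGT had a median signal of 477.5 and 24 of 51 were in the strongest 10% of the whole list, against a median of 247.2 and 130 of 904 for peaks without it. These values and the shares by order of signal are a description, since the same peaks showed the sequence.

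**Figure D2:**
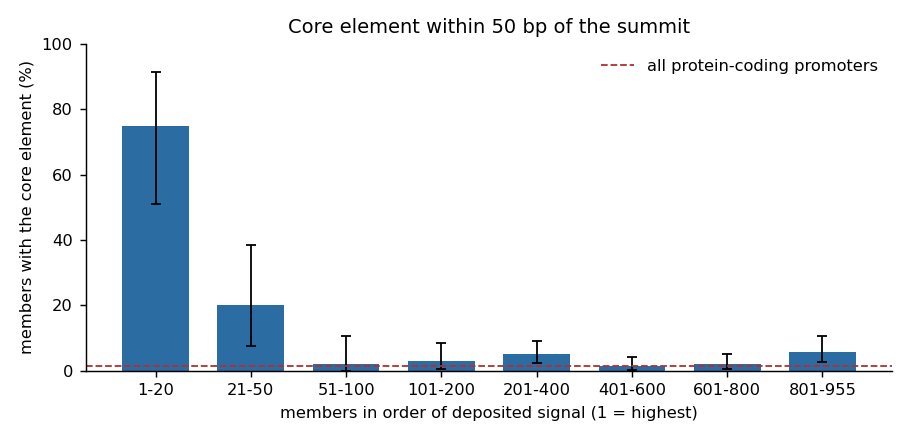
Share of promoter peaks upstream of a TSS that hold the core element CAGGGT within 50 bp of the summit (percent), for peaks in order of deposited signal, strongest at the left. Bars are shares with exact 95% intervals, and the dashed line is the 1.42% of all gene promoters. The share is 75% in the strongest 20 and 20% in the next 30.

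Other CAGGGT genes were lower in the order. numb (FBgn0002973), an inhibitor of Notch signalling, had it at the peak of rank 80 (signal 1622.6), and AP-1gamma (FBgn0030089), a subunit of a clathrin adaptor complex, at that of rank 76 (1737.17). The other 5 of the 20 strongest had no copy within 50 bp of the summit, namely Polr2E, pnt, px, Ugalt and CG14100.

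Summits upstream of a TSS gathered at a typical distance. The median was 195 bp (interquartile range 117 to 297), 52.5% were within 200 bp and 20% within 100 bp. On the downstream side the median was 124 bp and 42.7% were within 100 bp. Distance is what the rule uses, so these are descriptions. The peaks 151 to 200 bp upstream had 42 of 156 in the strongest 10% of the list (26.9%), the highest share of the 10 intervals of 50 bp, and their median signal was 317.6. In the 50 bp next to the TSS the share was 11 of 93 (11.8%) and the median signal 210.8. GC was 46.6% at summits in these nearest 50 bp and 32.4% at 151 to 200 bp.

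**Figure D3:**
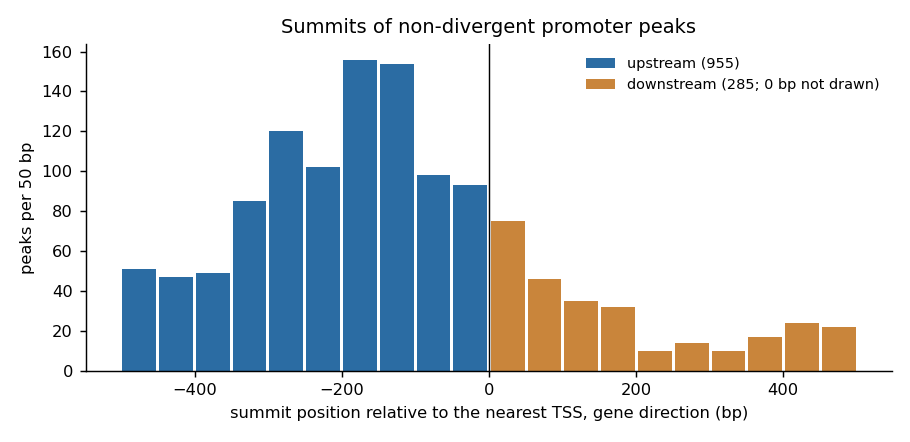
Number of summits in 50-bp intervals upstream of the TSS (blue, left) and downstream of it (orange, right), relative to the nearest protein-coding TSS in gene direction. The upstream peaks are most frequent at 101 to 200 bp, with 310 peaks there, and the downstream peaks next to the TSS.

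The peaks close to the TSS were also those in which the replicates differed most. Of 191 summits within 100 bp, 88.5% were matched in replicate 1, 86.9% in replicate 2 and 58.6% in replicate 3. Of the 98 at 401 to 500 bp the shares were 74.5%, 88.8% and 83.7%. Replicate 3 was the lowest of the 3 near the TSS, and replicate 1 the lowest far from it. Among peaks matched in both replicates 1 and 3, 76 of 103 within 100 bp ranked higher in replicate 1 (73.8%), against 115 of 309 over 200 bp away (37.2%) and 283 of 625 in all (45.3%). These are counts over peaks within a pair of samples, and the cause was not tested. Some members share a matched peak, 28 in replicate 1, 16 in replicate 2 and 16 in replicate 3.

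Promoter peaks upstream of a TSS were found in every replicate more often than those downstream of one, though this rested on replicate 3. Of the 955, 574 were matched in all 3 replicates (60.1%, exact 95% interval 56.9 to 63.2), 247 in 2, 117 in 1 and 17 in none. The share over all IDR peaks was 56.0%, and it was 46.9% (134 of 286) for downstream promoter peaks, a difference of 13.3 percentage points (Fisher's exact test, two-sided, adjusted p = 0.000156). Replicates 1, 2 and 3 gave 81.4%, 85.2% and 77.7% of the upstream peaks and 80.8%, 84.6% and 62.9% of the downstream ones. Without replicate 3 the difference was 4.14 points (exact test, adjusted p = 0.357), and among the stronger 50% of the list it was 1.64 points (exact test, adjusted p = 0.895). Against divergent promoters, with 58.8%, the difference of 1.26 points was not distinguishable (exact test, adjusted p = 0.650).

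Where matched, the summits stayed on their side of the TSS. In replicates 1, 2 and 3, 97.3%, 97.5% and 99.3% of the matched summits were also upstream, and they lay a median of 22, 6 and 12 bp from the pooled summit. Spearman's rank correlation of the signal was 0.784 for replicates 1 and 2, 0.734 for 1 and 3 and 0.805 for 2 and 3, across 694, 625 and 650 peaks that share their source and are not independent.

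The strongest peaks of the list were better represented upstream than downstream. In its strongest 10% were 154 of the 955 upstream peaks (16.1%, interval 13.8 to 18.6), against 23 of 286 downstream peaks (8.04%, interval 5.17 to 11.8) and 10% of all IDR peaks. The difference of 8.08 points passed Fisher's exact test (two-sided, adjusted p = 0.000958). In the order of each replicate alone the shares were 14.7%, 15.5% and 15.2% upstream and 10.5%, 8.74% and 8.04% downstream. Against divergent promoters, at 15.2%, the difference of 0.899 points did not pass (exact test, adjusted p = 0.703), and in narrower and wider windows it turned, to -2.44 points with 200 bp and to -0.241 points with 1000 bp.

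Base composition changed over a short distance around the summit. GC averaged 35.2% in the 101 bp at the summit and 40.1% in the flank, and it was lower at the summit in 597 peaks and higher in 341 (exact binomial test, two-sided, p = 5.38e-17). The strongest 20 peaks went the other way, with 46.4% at the summit and 38.4% in the flank, as did the 51 with CAGGGT, with 46% and 40%. The windows 150 bp upstream of all gene starts had 35.9%, so the level at summits is close to that of promoters in general. It is also close to the 34.8% at the summits of all IDR peaks. The other classes had 32.1% at divergent promoters, 34.4% beyond 500 bp and 42.5% downstream of a TSS. The lowest value of the profile, 34.1%, lay 50 bp from the summit on the side away from the gene, and on the gene side it climbed to 46.6% at 225 bp. In the replicates taken alone mean GC was 38.9% at the summit and 39.0% in the flank in replicate 1, nearly equal, 36.9% and 39.9% in replicate 2, and 32.8% and 40.5% in replicate 3.

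Of 16 sequences known from fly promoters and regulatory DNA, 2 were commoner at summits than in flanks (12.5%). The TATA-box word TATAAA, bound by the TATA-binding protein, was found at 20.7% of summits against 15.6% of flanks (exact McNemar test, two-sided, adjusted p = 0.0421), and a run AAAAAAA at 13% against 8.48% (adjusted p = 0.0347). Both strands were searched. All gene promoters held TATAAA at 20.6% and the A run at 12%, so both shares were near the promoter background. Neither was centred on the summit. In steps of 25 bp TATAAA was most frequent 75 bp away from the gene (8.90%, against 6.60% at the summit). The A run was most frequent 50 bp away on that side (5.03%, against 3.77%). No sequence was called as rarer at summits (0 of 16 by the same test), and 2 had an unadjusted p under 0.05, GAGAG (exact p = 0.0323) and CACACA (p = 0.0395). 

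The other sequences did not pass against flanks, and their shares are given at summits, in flanks and in all gene promoters. The DNA replication element TATCGATA was at 1.47%, 0.628% and 1.15%, and CGATA, the core read by the insulator protein BEAF-32, which lies within it, at 15%, 12.8% and 14.3%. Cores of promoter motifs found in flies were GGTCACAC, at 1.15%, 0.314% and 0.645%, GTATTTT, at 5.76%, 3.77% and 5.08%, and CATCNCTA, at 1.47%, 1.05% and 0.932%. The Initiator words TCAGTT or TCAGTC were at 7.96%, 9.84% and 8.63%, and CTTTTT, the core of the TCT motif of ribosomal protein genes, at 16.1%, 17.2% and 16.7%. CAGGTA, bound by the early activator Zelda, was at 2.09%, 1.99% and 2.19%. The E-boxes CAGCTG and CACGTG, read by helix-loop-helix proteins, were at 3.77%, 5.65% and 3.97% and at 1.05%, 1.15% and 1.16%. GAGAG, the GAGA factor word, was at 15.1%, 18.8% and 12.1%, CACACA at 7.12%, 9.84% and 6.85%, GAANNTTC, from the heat shock element, at 2.51%, 2.93% and 3.08%, and GCCAT, the core of the Pho site, at 13.3%, 13.8% and 14.9%.

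Without replicate 3, with a 200 bp promoter window, or with outermost TSSs alone no motif was called. The TATAAA difference was 4.61, 5.79 and 6.13 points in these settings, against 5.13 points as reported, over fewer peaks. In replicates 1, 2 and 3 alone TATAAA was at 17.0%, 19.2% and 25.1% of summits and at 16.1%, 15.5% and 14.3% of flanks, so the excess was small in replicate 1 and largest in replicate 3. The A run lost its call in 6 of 10 alternatives, which were these 3, leaving out replicate 2 (exact McNemar test, adjusted p = 0.0671), the stronger 50% of the list (0.075) and 25 bp on each side (0.0567). CG18549 (rank 86) was among the strong peaks with the TATA word, but was not the strongest of them. Its sequence is given with TATAAA in capitals.
CG18549, chr3R:12449111-12449211, plus strand: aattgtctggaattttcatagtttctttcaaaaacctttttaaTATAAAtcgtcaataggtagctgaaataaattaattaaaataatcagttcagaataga

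TATAAA had no preferred direction. It ran with the gene in 130 copies and against it in 132. In textbook promoters the TATA box lies a short way upstream of the TSS, and only 1 copy in gene direction began 20 to 40 bp upstream of the TSS, although 121 windows cover that stretch. Looking at the sequence 20 to 40 bp upstream of the TSSs themselves, wherever the summit lay, TATAAA was at 30 of the 955 (3.14%), internal starts included. At outermost TSSs it was at 18 of 584 (3.08%), against 7.79% of all genes at theirs.

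Against downstream promoter peaks, 1 sequence was commoner upstream (6.25% of the 16) and 1 rarer (6.25%). TATAAA was at 20.7% of upstream and 8.39% of downstream summits (Fisher's exact test, two-sided, adjusted p = 1.03e-05), and CACACA at 7.12% and 14.0% (adjusted p = 0.00569). Divergent promoter peaks held TATAAA at 28.2%, peaks beyond 500 bp at 22.7% and all IDR peaks at 22.0%. The upstream share was thus above that of downstream peaks only, and the downstream peaks were the low class. In replicates 1, 2 and 3 alone TATAAA was at 17.0%, 19.2% and 25.1% of upstream summits and at 8.76%, 8.07% and 11.7% of downstream ones, so the direction held in every replicate. The GC share of downstream summits was 42.5%, and its part in this difference was not tested. The call for CACACA was lost in 4 of 9 alternatives. The difference was -6.87 points as reported, -5.55 without replicate 3 (Fisher's exact test, adjusted p = 0.153), -4.36 with a 1000 bp window, -1.56 with a 200 bp window and -1.82 with 25 bp on each side.

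**Figure D4:**
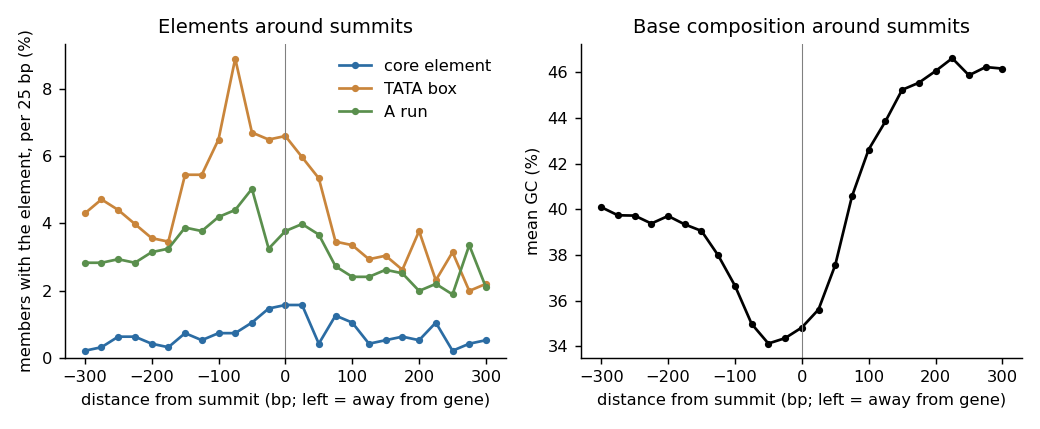
Left, share of the 955 peaks with the core element (CAGGGT), the TATA box word (TATAAA) or the A run (AAAAAAA) in 25-bp steps around the summit (percent). Right, mean GC (percent) in the same steps, with the gene to the right. CAGGGT is highest at the summit and 25 bp toward the gene (1.57% each) and GC is lowest, at 34.1%, 50 bp on the side away from the gene. On that side TATAAA is highest at 75 bp (8.90%) and AAAAAAA at 50 bp (5.03%).

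The 6-mers called as rarer at summits, 37 of 2080 (1.78%), all held 3 or more G or C, and 39 of the 43 commoner ones held at most 1. Besides ACCCTG, the commoner ones with at least 2 G or C were AGGGTG and ACAGGG, which overlap ACAGGGTG, and GTTGAA, which was found at 7.64% of summits against 3.56% of flanks (exact McNemar test, adjusted p = 0.0111). The number of called 6-mers, 80 in all, fell to 25 without replicate 3 and rose to 125 without replicate 1, and with 25 bp on each side it was 11.

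Upstream peaks were spread over outer and inner gene starts. The nearest TSS was the outermost of its gene for 584 peaks (61.2%) and an internal one for 371 (38.8%), and those 371 lay inside their own gene. The summit was intergenic for 476 peaks, in an intron for 392, in a 5′ UTR for 36, in a noncoding exon for 24, in a 3′ UTR for 23 and in a coding exon for 4. These places count any gene, and 152 summits (15.9%) lay inside a gene other than the one named, 91 of them only inside genes on the opposite strand. Peaks at internal starts were matched in all replicates in 58.8%, against 61.0% at outermost starts (Fisher's exact test, adjusted p = 0.824), and 16.2% against 16.1% were in the strongest 10% of the list (exact test, adjusted p = 1). CAGGGT was at 4.85% against 5.65% (exact test, adjusted p = 0.824), and none of these 3 differences passed. Peaks at internal starts lay farther away, at a median of 227 bp with 42.9% within 200 bp, against 173 bp and 58.6% at outermost starts, which is given as a description since the rule uses distance. The comparison of inner and outer starts was chosen after seeing the data.

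The 955 peaks named 858 genes, 6.15% of the 13945 protein-coding genes. Of these, 773 had 1 such peak and 85 had at least 2. Rtnl1 (FBgn0053113), which encodes a reticulon that shapes the endoplasmic reticulum, had 5 peaks, all next to internal TSSs, and the strongest held rank 130 (signal 1121.25) with ranks of 137, 132 and 133 in replicates 1, 2 and 3. The Rtnl1 peaks of ranks 1129 and 2157 lay upstream of the same TSS and shared their match in replicate 1. That of rank 2911 was not matched in replicate 2. dnc (FBgn0000479), the cyclic AMP phosphodiesterase gene dunce, had 4 peaks with ranks between 435 and 3152. Ptpmeg2 (FBgn0028341), a protein tyrosine phosphatase gene, had 4 peaks, of which 3 ranked 250, 264 and 387 at internal TSSs and the fourth 2121 at the outermost. Peaks of 1 gene share its surroundings and are not independent of each other.

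Genes of the cytosolic ribosome had peaks close to their starts. Of 86 ribosomal protein genes, 15 had a downstream promoter peak and 23 were the nearest gene at a divergent one. Upstream of the TSS 19 (22.1%) had a peak, against 6.15% of all genes, and the lists are described without a test. These 19 lay a median of 23 bp upstream, had 45.6% GC, held no CAGGGT and had none in the strongest 10% of the list, with a median signal of 223.4, against 195 bp, 35.2% GC and 252.8 over all 955. The strongest was at RpS10b (FBgn0285947; signal 553.7), with ranks of 305, 480 and 664 in replicates 1, 2 and 3. RpL23A, with ranks of 474, 584 and 2007, and RpL22, with 516, 811 and 2049, were also highest in replicate 1. All 13 matched in both replicates 1 and 3 ranked higher in replicate 1, and 19, 17 and 13 of the 19 were matched in replicates 1, 2 and 3.

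Heat shock genes had peaks in 6 of 34 (17.6%), namely Hsp27, Hsp83, Hsp22, Hsp26, Hsc70-3 and Hsp110. Hsp27 (FBgn0001226; 3L), a small heat shock protein gene, had a signal of 1056.96 with its summit 171 bp upstream and ranks of 212, 141 and 132. Hsp83 (FBgn0001233), the fly Hsp90 gene, had 832.8 at 90 bp upstream of an internal TSS and ranks of 142, 194 and 461. Notch and proneural genes had 5 of 26 (19.2%). At E(spl)m7-HLH (FBgn0002633), a target of Notch signalling, the signal was 812.5 with ranks of 242, 255 and 186. E(spl)m3-HLH had 2 peaks, the stronger 578.5 with ranks of 858, 549 and 260. The E(spl)m7-HLH peak and the stronger E(spl)m3-HLH peak ranked highest in replicate 3. The weaker E(spl)m3-HLH peak (347.8) ranked 2485, 549 and 810, highest in replicate 2, where it shared its match with the stronger one.

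Among the homeotic genes Abd-B, abd-A and Dfd had a peak (3 of 8), with signals of 769.1, 170.0 and 147.6. Dfd was matched in no replicate, and abd-A was not matched in replicate 3. The ph-p gene (FBgn0004861), a Polycomb group member, had a peak of signal 1339.9, with ranks of 111, 97 and 92. The pan-neuronal RNA-binding protein gene elav (FBgn0260400) had one of 944.9, with ranks of 190, 196 and 174. Cell cycle genes had 6 of 43 (14.0%), none of them in the strongest 10% of the list, and 2 of their 6 peaks were matched in every replicate. Lists near or below the background were the translation factors (4 of 56), Rab and SNARE traffic (6 of 91), oxidative phosphorylation (3 of 91) and mitochondrial ribosome genes (2 of 75). Muscle genes had 3 of 20, insulator genes 3 of 23, dorsoventral genes 3 of 24, segment polarity genes 3 of 26 and Polycomb and Trithorax group genes 3 of 34. In this order 4 of 4, 0 of 3, 2 of 3, 1 of 3 and 1 of 3 of their peaks were matched in every replicate. The insulator peaks were weak, with a median signal of 156.8, and that of SMC1 was matched in no replicate. RNA polymerase II and Mediator genes had 3 of 64, and neuronal (17), centriole (19), gap and pair-rule (20), germline (20), aminoacyl-tRNA synthetase (33) and spliceosome (34) genes had 1 each. None of 48 proteasome genes, 25 nuclear pore genes, 122 cuticle protein genes or 180 chemosensory receptor genes had a peak upstream of the TSS.

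**Figure D5:**
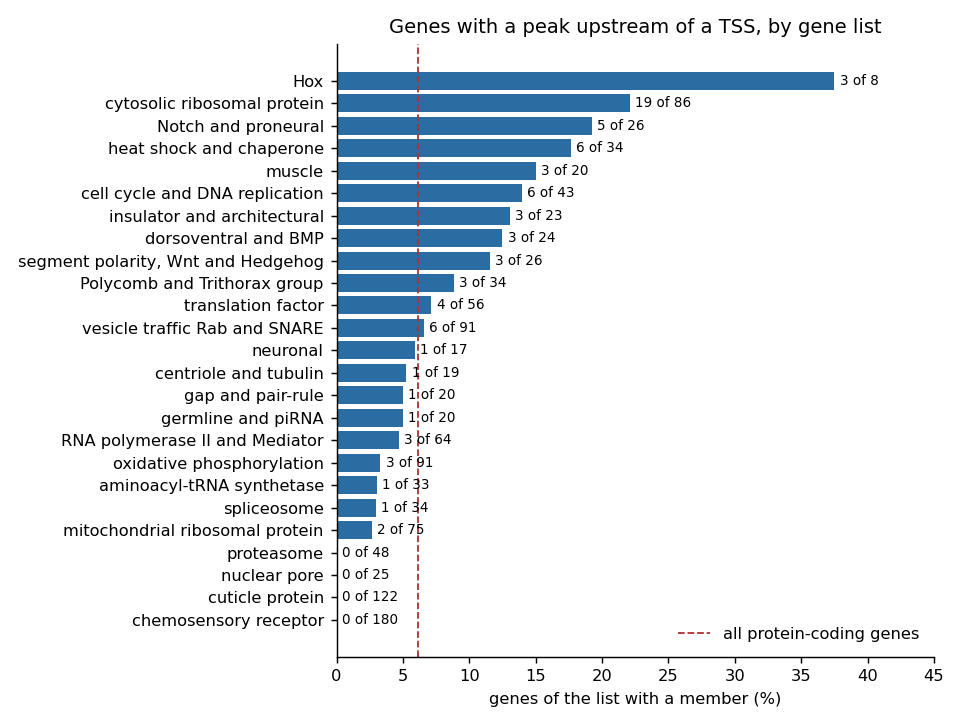
Share of genes in each list with a peak upstream of a TSS (percent), with the count of genes beside each bar. The dashed line is the 6.15% of all protein-coding genes. Homeotic genes have 3 of 8, cytosolic ribosomal protein genes 19 of 86, and 4 lists have none.

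The peaks at the limits of the choice had ordinary signals. Just inside 500 bp were CG43736 and kug, both at 500 bp with signals of 429.1 and 249.0, and just outside it t-cup at 503 bp (349.7) and CG3630 at 504 bp (194.2). Next to the TSS, RpS15Aa and clu lay 2 bp upstream (222.4 and 181.8), while SCaMC at 0 bp (258.6) and yps at 1 bp downstream (552.5) were outside.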

How the data were processed

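The samples were 3 biological replicates of 1 group. Per the readme texts deposited with the files, the authors called a relaxed list of 30000 peaks on each replicate and on the pooled replicates against a control alignment shared by all replicates, and derived the IDR list (irreproducible discovery rate) from these. It equalled the 4426 strongest pooled peaks. The deposited signal and −log10 q-value of a peak are the authors' own, the q-value was not used, and the summit is the deposited offset, printed counting from 1. No aligner, peak caller, version, IDR threshold or depth was given in the sources used here. Genes and TSSs came from Ensembl release 115 and sequence from RefSeq's dm6 genome. Lists on the dm3 build were not used.

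A peak was matched in a replicate by a summit at most 200 bp away within that list's 4426 strongest. Shares were compared with Fisher's exact test, windows (50 bp on each side of the summit against 350 bp upstream) with the exact McNemar test, and GC with the exact binomial test, all two-sided, with Benjamini-Hochberg adjustment over the 2 class comparisons, the 16 motifs, the k-mers or the 5 measures of outer against inner starts, and a threshold of 0.05, in Python 3.11.15 with scipy 1.17.1, tested on simulated data. The tests count peaks and not replicates, and the spread between embryos is outside their p-values; a sign test over 3 replicates cannot go below 0.25. Named were the 20 strongest peaks matched in every replicate and up to 4 of highest signal per list. Peaks at the limits of the rule were named too. Per called motif, a strong peak holding it was taken, which for TATAAA was not the strongest. GTTGAA, the genes with most peaks and the outer against inner starts were chosen after their values were seen. The members and the 25 gene lists were chosen with earlier results of these data known, and 3 list entries were not matched. Alternatives were windows of 200 and 1000 bp, outermost TSSs, matches within 100 and 400 bp, the strongest 2213 or 1106 peaks, 25 and 100 bp on each side, a downstream flank, 8-mers and leaving out each replicate.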

Additional observations from a re-analysis of the deposited data

How the results depend on the processing

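No paired analysis was possible because the samples form a single group. The share of CAGGGT at summits against flanks kept its direction and its call in all 10 alternatives run, with differences between 2.93 and 5.93 points, as did the lower GC at summits, with 61.5% to 77.8% of peaks lower. The excess over downstream peaks in the strongest 10% of the list held in all 7 alternatives, between 7.08 and 15.6 points, and the excess of TATAAA over downstream peaks in all 9.

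The difference from downstream peaks in matching was 1.64 points with the stronger 50% of the list, and leaving out a replicate gave 4.14 to 13.9 points. Against divergent promoters the match difference turned to -5.56 points with a 200 bp window and ran between -0.169 and 3.45 points with a replicate left out, and that in the strongest 10% turned to -2.44 points with 200 bp and -0.241 with 1000 bp. The number of peaks was 636 with outermost TSSs alone, and 625 to 694 where only peaks matched in the other replicates were kept, by construction.

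The 80 called 6-mers became 140 with 100 bp on each side, 11 with 25 bp, 678 with the downstream flank, 160 with a 1000 bp and 30 with a 200 bp window, 25 to 125 with a replicate left out, and 1 with 8-mers. The 2 motifs called against flanks became 6 with 100 bp on each side, 1 with 25 bp, 6 with the downstream flank, 0 with outermost TSSs or a 200 bp window, and 0 to 4 with a replicate left out. Those against downstream peaks became 1 with 25 bp and with either other window, and 1 to 2 with a replicate left out. The causes were not tested. Leaving out a replicate only filters the IDR peaks, whose summits and signals still rest on all 3, so it understates the spread. Read depth is unknown, so weak peaks cannot be weighed by their counts.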
